A study of Mus musculus with 2 samples.

Results

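Nuclei of GABA-releasing neurons that carried many transcripts of Adarb2 and Erbb4 were examined in the ipsilateral hemisphere of mice after subarachnoid haemorrhage (SAH) and in a control library, a selection meant to hold the caudal-type interneurons that express Vip or Ndnf. Of 30413 deposited nuclei, 25322 had 300 to 7000 detected genes and at least 2000 unique molecular identifiers (UMIs, each standing for 1 captured transcript), and 874 of these met every limit on marker genes. The limits asked for at least 3 UMIs of Gad1 and Gad2 together, the GABA-synthesizing enzymes, at least 10 of Adarb2, and at least 5 of Erbb4, the neuregulin receptor. They allowed at most 3 UMIs of Sst, 2 of Baiap3, 2 of the vesicular glutamate transporters Slc17a7 and Slc17a6, and 5 of the oligodendrocyte genes Mobp and St18. The Normal library gave 346 of these nuclei and the SAH library 528.

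Caudal-type interneurons are born in the caudal ganglionic eminence of the embryo and migrate into the cortex, where they keep the RNA-binding gene Adarb2 and, in most cases, the homeobox factor Prox1. Vip cells, which release vasoactive intestinal peptide, mainly inhibit other interneurons and so release pyramidal cells from inhibition. Ndnf cells lie mostly in the outermost cortical layer, many of them neurogliaform, and inhibit pyramidal dendrites slowly by spreading GABA through the tissue around them. Adarb2 and Erbb4 are also expressed by other GABA-releasing neurons of the forebrain, so the selection does not by itself name a cell type.

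Single nuclei were profiled with droplet 3′ chemistry from male mice aged 6 to 8 weeks per the labels, and C57BL/6J by the study's methods. Brain tissue running from the medial prefrontal cortex to the centrolateral thalamus was pooled from 3 mice per condition, so each condition was 1 library. The SAH mice were taken 12 h after endovascular perforation. The control mice were labelled Normal, whereas the study's text describes sham-operated controls, and the methods also give the mice a different age range. The study's text gives more nuclei for the control than for SAH and the files hold the reverse, and every direction below rests on the labels of the files. The Normal library held 12204 nuclei and 114970719 UMIs, the SAH library 18209 nuclei and 172604358 UMIs. The libraries shared 78 barcodes over all nuclei and 0 among the 874. With 1 library per condition no difference between conditions could be tested against the spread between animals, so no p-value was computed. Levels are given as CPM, the UMIs of a gene scaled to a common total over the same nuclei, and the 95% intervals given are exact Poisson, binomial or conditional binomial intervals that cover counting error only.

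The limits chose the nuclei, so the levels of those genes are given as a description. A selected Normal nucleus held a median of 51.0 Adarb2 UMIs, 61.0 Erbb4 UMIs and 7 UMIs of Gad1 and Gad2 together. In SAH the medians were 60.5 for Adarb2, 78.5 for Erbb4 and 6 for Gad1 and Gad2. Few nuclei lay at the Adarb2 limit, with 10 Normal and 7 SAH nuclei at exactly 10 UMIs. Nuclei that met all other limits but held 9 Adarb2 UMIs numbered 3 in Normal and 6 in SAH. The Gad limit cut through a denser range: 58 Normal and 96 SAH nuclei held exactly 3 UMIs, and 67 Normal and 88 SAH nuclei were left out with 2. The Adarb2 limit was therefore far from most of the nuclei it kept, and the Gad limit was not. At the Erbb4 limit of 5 UMIs lay 7 Normal and 4 SAH nuclei, with 4 and 7 just outside. At the upper limits, 2 Normal and 3 SAH nuclei were inside with 3 Sst UMIs and 2 and 0 outside with 4, while 15 and 25 were inside with 2 Baiap3 UMIs and 13 and 6 outside with 3. For the glutamate transporters 14 and 14 were inside with 2 UMIs and 5 and 9 outside with 3, and for Mobp and St18 1 and 3 were inside with 5 UMIs and 0 and 4 outside with 6.

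The selected nuclei made up the same share of both libraries. They were 3.45% (95% interval 3.10 to 3.82) of the 10035 Normal nuclei within the limits on genes and UMIs and 3.45% (3.17 to 3.76) of the 15287 SAH nuclei, a log2 ratio of 0.00 (-0.20 to 0.20). Among nuclei with at least 3 Gad1 and Gad2 UMIs they were 17.9% (16.2 to 19.7) of 1934 in Normal and 21.2% (19.6 to 22.9) of 2490 in SAH, a log2 ratio of 0.25. The median depth of the selected nuclei was close to equal, with 9760 UMIs in Normal, between 2449 and 37690, and 9710 in SAH, between 2032 and 37483. Over all nuclei within the limits on genes and UMIs the medians were 8882 UMIs in Normal and 9724 in SAH. When every nucleus was thinned to 5000 UMIs and the limits were lowered, 3.46% of 7739 Normal and 3.81% of 11484 SAH nuclei were selected, with 2296 Normal and 3803 SAH nuclei too shallow to enter.

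Marker levels set the selected nuclei apart from other neurons of the same libraries. Somatostatin-type GABA nuclei (169 Normal and 81 SAH), Sox6-type GABA nuclei with little Sst (249 and 362) and cortical-type excitatory nuclei (2363 and 1890) served for comparison, and each gene was read against the class where it was highest. Vip stood at 473 CPM in Normal and 521 CPM in SAH, against 2.93 and 2.26 CPM in excitatory nuclei. The chemokine Cxcl14 was at 76.5 and 36.2 CPM, against 1.25 and 0.692 CPM in excitatory nuclei. Ndnf, which encodes a secreted neurotrophic factor, was at 158 and 102 CPM, against 9.61 and 12.8 CPM in somatostatin-type nuclei. Other large log2 ratios over the highest comparison class, among genes not used to select nuclei, were 3.67 for the neurokinin B precursor Tac2, 3.50 for the extracellular matrix gene Frem1, 3.43 for the guidance cue Sema3c, 3.21 for the homeobox gene Pbx3 and 3.04 for Prox1. Col14a1 (2.94), Crh (2.91), Pde11a (2.90) and Meis1 (2.89) completed the 12 largest together with Vip (7.58), Cxcl14 (5.72) and Ndnf (3.55). The receptor kinases Kit (2.46) and Egfr (1.94) were higher by less, both read against Sox6-type nuclei. These ratios describe nuclei chosen by their expression and carry no test.

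The caudal-type label held for only part of the selection. Clustering the 874 nuclei gave 13 groups, which were named from marker lists and numbered by size. Clusters 3, 6 and 10 were Vip-like (191 nuclei), clusters 2, 4 and 12 Lamp5-like (267 nuclei), a type that includes neurogliaform cells, and cluster 8 was Sncg-like (43 nuclei), a type that includes Cck basket cells. Together these 7 clusters held 501 nuclei, or 57.3%, of which 187 were Normal and 314 SAH. The other 373 nuclei, or 42.7%, lay in 6 clusters whose markers pointed elsewhere or gave no name. The whole selection is therefore called Adarb2 and Erbb4 nuclei here. Results were also computed on the 7 clusters named Vip-like, Lamp5-like or Sncg-like, called the clusters with caudal-type markers below.

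**Figure D1:**
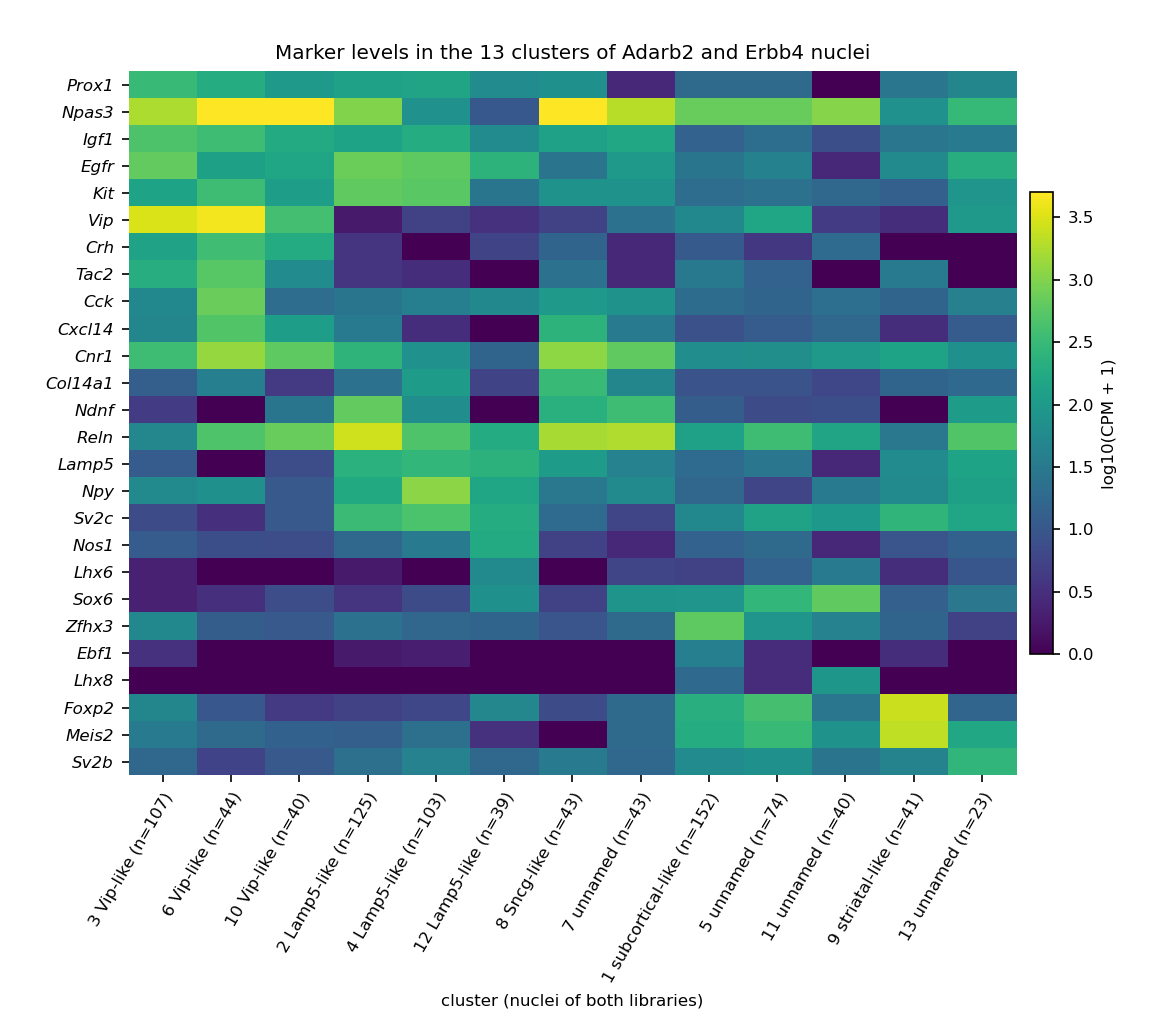
Heat map of marker levels, as log10 of CPM plus 1 with both libraries summed, for 26 genes (rows) in the 13 clusters of Adarb2 and Erbb4 nuclei (columns, with the number of nuclei in each). Vip marks clusters 3 and 6, Ndnf clusters 2 and 7, Zfhx3 cluster 1, Foxp2 and Meis2 cluster 9, and Sv2b cluster 13, while Prox1 is brightest in cluster 3.

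Within the Vip-like clusters, Vip reached 3120 CPM in cluster 3, 4249 CPM in cluster 6 and 387 CPM in cluster 10. Cluster 6 also carried Cck at 707 CPM, the cannabinoid receptor Cnr1 at 1313 CPM, Cxcl14 at 496 CPM and the serotonin receptor channel Htr3a at 132 CPM. Cluster 3, with 107 nuclei, was led instead by Cp, the bombesin-family receptor Grpr, Sntb1 and Vip, and carried Egfr at 656 CPM and the acetylcholine-synthesizing enzyme Chat at 34.9 CPM. It also carried microglial genes at low levels, among them Ctss at 34.9 and Cx3cr1 at 31.3 CPM, and whether these came from the same cells was not tested. Cluster 10 took its name without Vip, which was at 506 CPM in the other members and had a UMI in 10 of its 40 nuclei. It was distinguished by Crh, Penk and Synpr, with the orphan nuclear receptor Nr2f2 at 157 CPM.

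The Lamp5-like clusters differed in their secreted products. Cluster 2 held Reln at 2698 CPM and Ndnf at 652 CPM together with Egfr at 742 CPM and Kit at 617 CPM. Cluster 4 held neuropeptide Y (Npy) at 1149 CPM and Ndnf at 63.7 CPM, with Egfr at 604 CPM and Kit at 560 CPM. Cluster 12 had Ndnf at 0 and carried Lhx6, a factor of the medial ganglionic lineage, at 55.2 CPM and the nitric oxide synthase Nos1 at 180 CPM. The Sncg-like cluster 8 rested on Cnr1 (1189 CPM), Col14a1 and Jam2, and Sncg itself had 0 UMIs in all 874 nuclei, so the name of that cluster was not carried by its own gene.

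Among the remaining clusters, the largest single group of the selection, cluster 1 with 152 nuclei, was subcortical-like, with Zfhx3 at 613 CPM and a UMI of it in 129 nuclei. Its leading genes by ratio were Pax3, seen in 6.58% of its nuclei, and Otx2os1. Prox1 was at 17.8 CPM there, against 312 CPM in cluster 3. Cluster 9 (41 nuclei) was striatal-like, with the forkhead factor Foxp2 at 2504 CPM, Meis2 at 2185 CPM and the dopamine receptor Drd1 at 90.3 CPM. Cluster 11 (40 nuclei) had Sox6 at 625 CPM, Chat at 60.5 CPM from 4 nuclei, and Lhx8 and the choline transporter Slc5a7 as leading genes, with Prox1 at 0, and stayed unnamed. In cluster 5 (74 nuclei) Sox6 was at 282 CPM, with a UMI in 26 nuclei, and Vip at 155 CPM, from 7 nuclei and at 288 CPM in Normal and 2.12 CPM in SAH. Cluster 7 (43 nuclei) held Reln at 1786 CPM and Ndnf at 358 CPM but Prox1 at 1.65 CPM, and both stayed unnamed. Cluster 13 (23 nuclei) carried the cortical excitatory markers Sv2b (267 CPM) and Rorb (201 CPM) with a median of 18521 UMIs, and 20 of its 23 nuclei were among those with the highest doublet scores. By the same scores 30 of 152 nuclei in cluster 1, 25 of 74 in cluster 5 and 17 of 43 in cluster 7 were possible doublets, against 0 of 44 in cluster 6 and 1 of 103 in cluster 4.

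Vip and Ndnf marked separate nuclei. With at least 3 UMIs of the gene in question, 154 nuclei were Vip nuclei and 151 Ndnf nuclei, and 0 of 346 Normal and 0 of 528 SAH nuclei reached 3 UMIs of both, which allows shares up to 1.06% and 0.696%. A Vip nucleus of the Normal library held a median of 28 Vip UMIs and at most 207, and of the SAH library 25 and at most 125. Ndnf nuclei held fewer UMIs of their gene, with medians of 7 in Normal and 6 in SAH. Few nuclei of the comparison classes reached this limit, and the part of free RNA was not tested. Of somatostatin-type nuclei, at median depths of 11717 and 12739 UMIs, 0 of 169 Normal and 0 of 81 SAH nuclei had 3 Vip UMIs. These counts allow up to 2.16% and 4.45%. Of the same nuclei 2.37% in Normal and 1.23% in SAH had 3 Ndnf UMIs. In excitatory nuclei, at median depths of 14068 and 16083 UMIs, 0 of 2363 Normal and 2 of 1890 SAH nuclei had 3 Vip UMIs. The Normal count allows up to 0.156%. At least 1 Vip UMI was seen in 4.36% of Normal and 2.96% of SAH excitatory nuclei. At least 1 Ndnf UMI was seen in 5.92% of Normal and 11.1% of SAH somatostatin-type nuclei.

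By the limit of 3 UMIs, Vip nuclei made up a larger share and Ndnf nuclei a smaller share of the Adarb2 and Erbb4 nuclei in the SAH library. Vip nuclei were 48 of 346 (13.9%, 95% interval 10.4 to 18) in Normal and 106 of 528 (20.1%, 16.7 to 23.8) in SAH, a log2 ratio of 0.53 (0.03 to 1.06). Ndnf nuclei were 73 of 346 (21.1%, 16.9 to 25.8) in Normal and 78 of 528 (14.8%, 11.9 to 18.1) in SAH. Nuclei with neither gene at the limit were 65.0% and 65.2%. The binomial intervals of the Normal and SAH shares overlapped for both kinds. After thinning to 5000 UMIs per nucleus, with 52 Normal and 36 SAH nuclei left out, the Vip shares were 12.9% and 18.5% and the Ndnf shares 11.9% and 7.52%. Within Ndnf nuclei, chosen on that gene, Ndnf was at 722 CPM (665 to 783) in Normal and 600 CPM (550 to 652) in SAH. Within cluster 2, which Ndnf helps to define, it was at 808 CPM (729 to 893) and 539 CPM (485 to 598), and the limit of 3 UMIs reads the level as well as the number of cells. Fewer cells of a kind and less RNA of the gene per nucleus cannot be told apart from these shares, nor can the condition and the dissection of each pool.

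**Figure D2:**
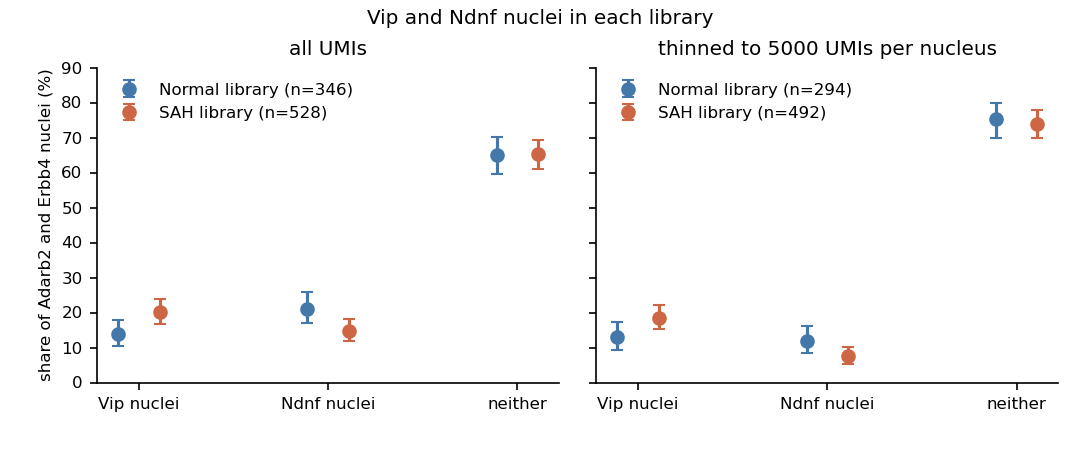
Share of Adarb2 and Erbb4 nuclei (%, vertical axis) that were Vip nuclei, Ndnf nuclei or neither in the Normal (blue) and SAH (orange) libraries, with exact 95% binomial intervals as bars, using all UMIs (left) and after thinning each nucleus to 5000 UMIs (right). The Vip share is 13.9% in Normal and 20.1% in SAH, and the Ndnf share 21.1% and 14.8%, while about 65% of nuclei in both libraries are neither.

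UMIs of other peptide genes were seen in most Vip nuclei. Of 154 Vip nuclei, 81 had a UMI of the enkephalin precursor Penk, 77 of corticotropin-releasing hormone (Crh), 70 of Tac2 and 51 of cholecystokinin (Cck). None of these 4 was seen in 15 nuclei and all of them in 9, while Crh and Tac2 occurred together in 44. The calcium-binding protein gene Calb2 was seen in 21 of 154 and Chat in 15. Of 151 Ndnf nuclei, 33 had a UMI of Cck, 20 of Penk, 4 of Tac2 and 3 of Crh. In excitatory nuclei, which were deeper, Cck was seen in 68.8% in Normal and 37.0% in SAH, Penk in 8.17% and 5.19%, Crh in 1.57% and 0.423% and Tac2 in 1.23% and 1.38%. In Sox6-type nuclei Cck was seen in 39.4% and 19.3%. A Cck UMI, seen in 20 of 48 Normal and 31 of 106 SAH Vip nuclei, was thus less frequent than in excitatory nuclei, whereas UMIs of Penk, Crh and Tac2 were more frequent. No share was corrected for depth. By cluster, 98 Vip nuclei lay in cluster 3, 35 in cluster 6 and 9 in cluster 10, while 94 of 151 Ndnf nuclei lay in cluster 2, 23 in the unnamed cluster 7 and 13 in cluster 8.

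Genes that differed between Vip and Ndnf nuclei in both libraries were numerous. Of 4445 genes with at least 100 UMIs over both kinds, 142 (3.19%) were at least 2-fold higher in Vip nuclei in each library by itself, and 146 (3.28%) at least 2-fold higher in Ndnf nuclei. The median log2 ratio over all of them was -0.07. The kinds were chosen by Vip and Ndnf alone, which are left out, and no test was made. Among genes with at least 200 UMIs, the peptide genes Tac2 and Crh had the largest ratios on the Vip side. Tac2 was at 400 CPM in Normal and 251 CPM in SAH Vip nuclei, against 2.45 and 2.22 CPM in Ndnf nuclei, a log2 ratio of 7.01 (5.64 to 8.89). Crh was at 285 and 195 CPM against 6.13 and 2.22 CPM, a ratio of 5.78 (4.72 to 7.11). Cck was at 521 and 87.1 CPM against 38.0 and 13.3 CPM, so the gap held in each library although Cck itself was far lower in SAH.

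The 12 genes named on each side had at least 200 UMIs and were ranked by the smaller of their Normal and SAH ratios. The ratios printed are those of both libraries summed, which would give another order. The other genes of the 12 on the Vip side differed in kind. Synpr, a synaptic vesicle protein gene, was at 1768 and 2108 CPM in Vip nuclei against 169 and 168 CPM in Ndnf nuclei, and 151 of 154 Vip nuclei had a UMI of it. The metabotropic glutamate receptor Grm7 was at 2634 and 3137 CPM against 427 and 641 CPM. The semaphorin receptor Nrp1 (log2 ratio 3.76), the adhesion gene Sdk1 (2.73), the choline transporter-like gene Slc44a5 (2.70), Galnt18 (2.74), the protease inhibitor Serpine2 (2.54) and the sodium pump regulator Fxyd6 (2.41) were also among these 12, as was the secreted factor Vwc2l (4.34).

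Of the 12 named on the Ndnf side, the largest ratio was that of Sv2c, a synaptic vesicle glycoprotein gene. It was at 228 and 212 CPM in Ndnf nuclei, and at 0 and 6.53 CPM in Vip nuclei. Reln, the secreted guidance protein of the outermost layer, was at 2636 and 2139 CPM against 195 and 87.1 CPM, and 147 of 151 Ndnf nuclei had a UMI of it. The neurexin ligand Nxph1 was at 2273 and 2150 CPM against 148 and 168 CPM. Lamp5 (log2 ratio -3.86), the matrix link protein Hapln1 (-4.59), the receptor phosphatase Ptprm (-4.59), Crispld1 (-4.29), Mpped1 (-4.09) and the calcium release channel Itpr1 (-2.87) followed, with Crtac1 (-2.69), Tox3 (-2.85) and Igsf11 (-2.68) completing the 12.

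**Figure D3:**
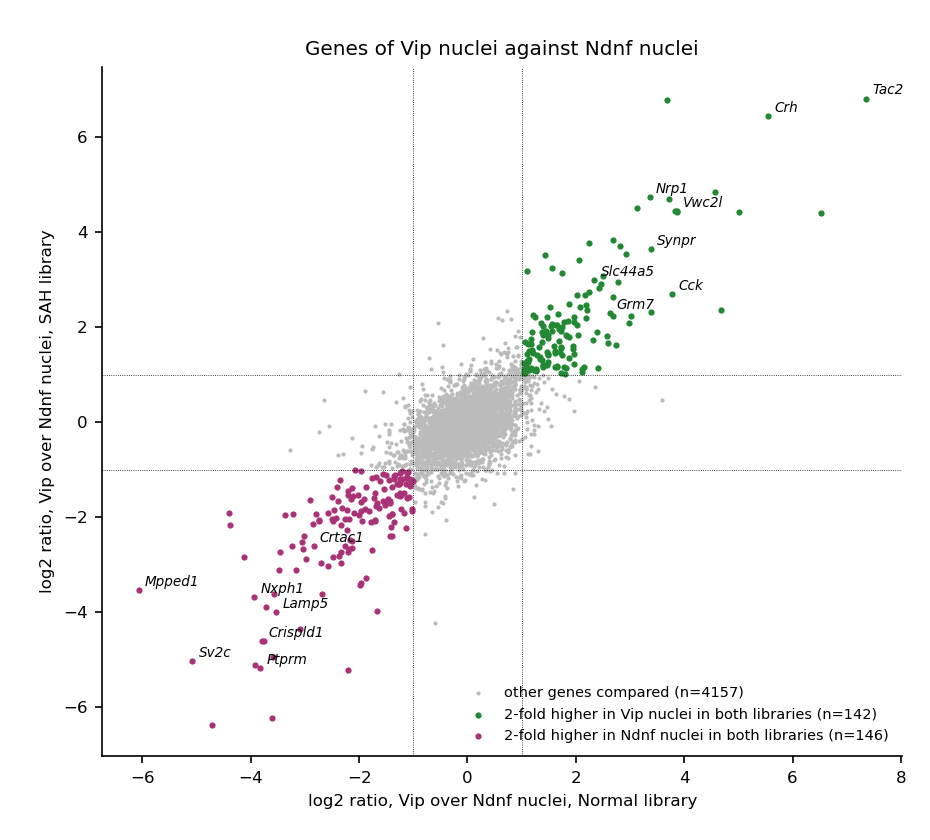
Log2 ratio of Vip over Ndnf nuclei for each of 4445 genes in the Normal library (horizontal axis) and the SAH library (vertical axis), with dotted lines at 2-fold. The 142 genes at least 2-fold higher in Vip nuclei in each library (green) include Tac2, Crh, Synpr and Cck, and the 146 higher in Ndnf nuclei (purple) include Sv2c, Ptprm, Nxph1 and Lamp5, and a gene at 0 in a group is drawn at the ratio that 3 counts would give.

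Receptor genes divided the kinds as well. Of 15 neuromodulator receptors compared, 5 were 2-fold higher in Vip nuclei in both libraries and 1 in Ndnf nuclei. The serotonin receptor Htr4 was at 119 and 241 CPM in Vip nuclei against 25.7 and 46.7 CPM in Ndnf nuclei, and the neuropeptide Y receptor Npy1r at 92.1 and 86.0 against 13.5 and 11.1 CPM. Htr2c, the muscarinic receptor Chrm3 and the adrenergic receptor Adra1b were the other 3. Htr2a went the other way, at 8.99 and 8.71 CPM in Vip nuclei against 71.1 and 64.5 CPM in Ndnf nuclei. Among 20 glutamate receptor genes, 4 were 2-fold higher in Vip nuclei, among them Grm7, Grm8 and Grik4, and Grin2a and the kainate receptor Grik1 in Ndnf nuclei, Grik1 at 2572 and 2941 CPM there against 784 and 704 CPM. Of 10 GABA-A receptor subunits 1, Gabra4, was 2-fold higher in Ndnf nuclei and 0 in Vip nuclei.

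Gene lists followed the same division where their genes could be compared. Of 6 Vip-type markers, 5 were higher in Vip nuclei and 0 in Ndnf nuclei, with a median log2 ratio of 3.38. Of 9 Lamp5 and neurogliaform markers, 6 were higher in Ndnf nuclei and 1, Cxcl14, in Vip nuclei, with a median of -2.82. Kit and Egfr, which belong to that list, differed by less than 2-fold in at least 1 library. Kit was at 200 and 182 CPM in Vip nuclei against 546 and 332 CPM in Ndnf nuclei, and Egfr at 351 and 519 CPM against 463 and 581 CPM. Prox1 was at 254 and 256 CPM in Vip nuclei against 83.4 and 93.4 CPM in Ndnf nuclei, and the transcription factor Npas1 at 146 and 58.8 CPM against 20.8 and 4.45 CPM. Of 9 peptides and secreted signals, 6 were higher in Vip nuclei and 3, Reln, Npy and Tnfaip8l3, in Ndnf nuclei. All 9 heat shock, 14 respiratory chain and 7 clock genes compared stayed below 2-fold in at least 1 library.

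Between the libraries, the Adarb2 and Erbb4 nuclei differed by 2-fold in few genes. Of 8695 genes with at least 100 UMIs, 180 (2.07%) were at least 2-fold higher in SAH and 231 (2.66%) at least 2-fold lower, and the median log2 ratio of SAH over Normal was -0.15. That shift is part of every ratio below, which are on the scale of all UMIs. Centred on the median, the counts were 251 higher and 126 lower, and centred on the 500 genes nearest in gene length they were 274 higher and 33 lower, so the balance between rises and falls moved with the scaling. The 7 clusters with caudal-type markers gave 113 higher and 121 lower of 5835 genes compared.

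Cholecystokinin, a satiety and interneuron peptide, fell the most of all genes with 200 UMIs or more. Cck stood at 113 CPM (103 to 124) in Normal and 33.0 CPM (28.5 to 38.0) in SAH (log2 ratio -1.77, -2.02 to -1.53). In Vip nuclei it was at 521 CPM (456 to 593) in Normal and 87.1 CPM (69.0 to 108) in SAH. Vip nuclei lay mostly in clusters 3 and 6, which the libraries filled in different proportions. Cluster 3 held 28 Normal and 79 SAH nuclei, and the Cck-rich cluster 6 held 20 and 24. The level was therefore also read within cluster 6. There Cck was at 1198 CPM (1051 to 1360) in Normal and 303 CPM (237 to 381) in SAH (log2 ratio -1.98, -2.38 to -1.60), and it was seen in 17 of 20 and 18 of 24 nuclei. A single Normal nucleus held 85 of its 238 Cck UMIs, whereas no SAH nucleus held more than 11 of 73. Cck was lower in the comparison classes too, at 112 and 32.0 CPM in excitatory nuclei.

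Neuropeptide Y fell as well. Npy, a peptide of neurogliaform and somatostatin cells, was at 258 CPM in Normal and 106 CPM in SAH (log2 ratio -1.28, -1.43 to -1.14). Centred by gene length the log2 ratio of Npy was -0.76, which is below 2-fold. Within the Npy-rich cluster 4 it was at 1977 CPM (1830 to 2133) in 33 Normal nuclei and 696 CPM (632 to 765) in 70 SAH nuclei, and 32 and 59 of these nuclei had a UMI. Within cluster 2 it was at 287 CPM (241 to 339) and 89.6 CPM (68.2 to 116). In Ndnf nuclei Npy was at 276 and 92.3 CPM. The log2 ratios in the comparison classes were -0.31 in somatostatin-type, -1.20 in Sox6-type and -1.27 in excitatory nuclei.

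The other peptides did not move together. Vip itself was at 473 CPM (452 to 495) in Normal and 521 CPM (503 to 540) in SAH over all selected nuclei, where the share of Vip nuclei was also larger in SAH. Within Vip nuclei, chosen on that gene, Vip was at 4128 and 3317 CPM. In cluster 6 it was at 4043 CPM (3768 to 4332) and 4420 CPM (4158 to 4694), and in cluster 3 at 3567 CPM (3318 to 3829) and 2964 CPM (2830 to 3104). Tac2 (log2 ratio -0.11, -0.36 to 0.15), Penk (-0.17, -0.39 to 0.05) and Crh (-0.27, -0.57 to 0.03) differed by less than 2-fold. In cluster 6 Tac2 stood at 564 and 519 CPM and Crh at 322 and 411 CPM, whereas in cluster 3 Tac2 stood at 280 and 172 CPM and Crh at 206 and 112 CPM. In cluster 10 Crh was at 256 and 147 CPM. Cxcl14 fell, from 76.5 to 36.2 CPM, with 391 and 147 CPM in the Sncg-like cluster and 649 and 369 CPM in cluster 6. Of 12 peptides and secreted signals compared, 0 rose and 3 fell, and the median log2 ratio was -0.27. Centred on the median 2 of them fell, and centred by gene length 1 fell, with a median of 0.01.

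Markers of the Lamp5 and neurogliaform type were mostly lower in SAH without reaching 2-fold. Reln was at 854 and 602 CPM, a log2 ratio of -0.50. Kit, the receptor for stem cell factor, was at 233 and 144 CPM, a ratio of -0.69. In Sox6-type and excitatory nuclei the ratios were -1.22 and -1.01 for Kit, and 0.29 and -0.08 for Reln. In cluster 4 Kit fell further, at 857 CPM (761 to 962) in Normal and 397 CPM (349 to 450) in SAH, and in cluster 2 it was at 795 and 488 CPM. Egfr went the other way in the selection, at 228 and 267 CPM, but stood at 694 and 554 CPM in cluster 4, at 756 and 732 CPM in cluster 2 and at 496 and 712 CPM in the Vip-like cluster 3. Gabrd, the delta subunit of extrasynaptic GABA-A receptors, fell by 1.07 on the log2 scale. In somatostatin-type, Sox6-type and excitatory nuclei its log2 ratios were -1.91, -1.36 and -1.10. Of 15 Lamp5 and neurogliaform markers, 0 rose and 3 fell (Npy, Cxcl14 and Gabrd), with a median log2 ratio of -0.50. The lowering was not particular to the selection. The median was -0.31 in somatostatin-type nuclei (3 genes), -0.27 in Sox6-type (8 genes) and -0.40 in excitatory nuclei (12 genes). In the Lamp5-like clusters themselves Cxcl14 was at 15.7 and 15.4 CPM, against 317 and 120 CPM in the Vip-like clusters. The Vip-like clusters held 65 Normal and 126 SAH nuclei, of which the Cxcl14-rich cluster 6 gave 20 and 24. Within cluster 6 alone Cxcl14 was at 649 and 369 CPM. Centred on the median 1 of the 15 fell, with a median of -0.36, and centred by gene length 0 fell, with a median of -0.37. Of 9 Vip-type markers 0 rose and 1, Cck, fell, and their median of -0.27 became 0.22 when centred by gene length. Of 6 Sncg and Cck-basket markers 0 rose and 2, Cck and Npas1, fell, with a median of -0.58.

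Of the transcription factors of the caudal lineage, Npas1 passed 2-fold over the whole selection. It was at 48.4 CPM in Normal and 20.2 CPM in SAH (log2 ratio -1.26, -1.60 to -0.92), and in cluster 6 at 247 CPM (183 to 326) and 104 CPM (67.1 to 153). Tcf4 (1776 and 1758 CPM), Npas3 (1330 and 1357 CPM), Nfib (715 and 698 CPM) and Zeb2 (505 and 512 CPM) each differed by less than 0.1 on the log2 scale. Prox1 was at 71.4 and 90.2 CPM. The orphan receptors Nr2f1 (-0.80) and Nr2f2 (-0.90) were lower without reaching 2-fold in the whole selection. In Vip nuclei their log2 ratios were -1.14 and -1.78, in Ndnf nuclei -1.11 and -0.50, and in the 7 clusters with caudal-type markers -0.94 and -1.17. Of 13 factors on the list, 0 rose and 1 fell, or 0 when centred by gene length, and the median log2 ratio was -0.04, which was 0.11 when centred on the median and -0.16 by gene length.

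Among later activity-dependent genes, Vgf and Scg2 fell and Inhba rose. Vgf, which encodes a granule protein cut into several peptides, fell from 73.9 CPM (65.7 to 83.0) to 26.2 CPM (22.2 to 30.7). Scg2, a secretogranin, fell from 229 to 110 CPM. In somatostatin-type, Sox6-type and excitatory nuclei the log2 ratios were -1.70, -1.69 and -1.55 for Vgf. For Scg2 they were -0.80, -1.05 and -0.83. In Vip nuclei Vgf was at -0.93 and Scg2 at -0.35, and in Ndnf nuclei at -1.66 and -1.84. The activin subunit Inhba rose from 21.0 CPM (16.7 to 26.0) to 54.9 CPM (49.1 to 61.3), a log2 ratio of 1.39. In the comparison classes its log2 ratio lay between 1.12 in excitatory and 1.69 in Sox6-type nuclei. The nuclear receptor Nr4a1 fell from 19.7 to 9.19 CPM and was the only one of 23 rapid immediate early genes with 100 UMIs, Fos, Egr1, Arc and Npas4 among those below. Centred on the median or by length Nr4a1 did not reach 2-fold (-0.95 and -0.84). Of 13 later activity-dependent genes, 1 rose and 2 fell, with a median of -0.00, and 1 fell when centred on the median and 0 by length, where Inhba remained past 2-fold.

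Lists of respiratory chain, heat shock, cold-linked and hypoxia response genes had medians below that of all genes. Most of their members that were compared stayed below 2-fold. Over all 8695 genes 2.07% were 2-fold higher and 2.66% were 2-fold lower. Of 48 respiratory chain genes, 0 rose and 10 fell, among them Cox4i1 (64.5 and 30.3 CPM), Cox8a (50.7 and 22.8 CPM) and Ndufa1 (18.2 and 6.12 CPM), with a median log2 ratio of -0.69. Centred on the median 5 of the 48 fell, and centred by gene length 0 fell, with medians of -0.55 and -0.22. Of 12 heat shock and chaperone genes, 0 rose and 2 fell, Hsp90ab1 (93.4 and 41.0 CPM) and Hsp90aa1 (85.2 and 38.4 CPM), with a median of -0.80. That median was -0.35 by length, where 0 of the 12 fell. Of 19 heat shock genes listed, Hspa1a, Hspa1b, Hspb1, Dnajb1 and Bag3 were among those with too few UMIs to compare. Of 18 cold-linked RNA-binding genes, Clk4 (152 and 68.9 CPM), a kinase of splicing factors, and Rbm3 (49.9 and 24.8 CPM) fell, with a median of -0.50, and 0 fell under either centring. All 12 hypoxia response genes compared stayed below 2-fold, with a median of -0.43. That was -0.28 when centred on the median and -0.22 by gene length. Of 21 hypoxia genes listed, Slc2a1, Hk2, Ldha, Egln3 and Adm were among those with too few UMIs to compare. Whether the heat shock and hypoxia genes left out rose or fell was not tested.

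Among the remaining genes with the largest falls were Dalrd3 (39.7 and 11.9 CPM), the Polycomb gene Ring1 (log2 ratio -1.71) and beta-actin, Actb (65.2 and 22.1 CPM). The ribosomal protein gene Rps21, the ubiquitin ligase Dtx3, the endophilin gene Sh3gl1, the S6 kinase Rps6kb2, Ccdc107, the phosphatase gene Dusp15 and the polyubiquitin gene Ubb followed, with log2 ratios between -1.49 and -1.33. Centred by gene length, Dalrd3 (-1.15), Ring1 (-1.12) and Sh3gl1 (-1.12) were past 2-fold. Actb (-0.97) was not, nor were the others, which lay between -0.96 and -0.74. In the somatostatin-type, Sox6-type and excitatory classes Ring1 had log2 ratios of -1.56, -1.49 and -1.51, and Actb -1.07, -1.49 and -1.36.

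The 12 largest rises were mostly of genes at low levels. The amino acid transporter gene Slc6a20b was at 10.2 CPM in Normal and 39.1 CPM in SAH (log2 ratio 1.93, 1.45 to 2.46). Alas2, the haem synthesis enzyme of red cell precursors, was at 12.0 and 40.1 CPM (1.74, 1.28 to 2.22), whereas haemoglobin transcripts numbered 38 UMIs in Normal and 8 in SAH over all selected nuclei. Lrmda, the giant muscle gene Ttn, the angiopoietin receptor Tek, the actin-binding gene Nexn and the lipid carrier Apod had log2 ratios between 1.66 and 1.90. Most Lrmda UMIs came from the subcortical-like cluster, at 28.5 CPM in Normal and 119 CPM in SAH. In the clusters with caudal-type markers Lrmda was at 5.35 and 12.8 CPM. The transcripts Pcsk2os2, Csmd2os, Sorbs2os and Grip1os1, named as opposite strands of Pcsk2, Csmd2, Sorbs2 and Grip1, overlap or lie beside those genes, and whether their UMIs were told apart by strand was not checked here. Sorbs2os had the most UMIs, at 85.2 CPM (76.3 to 94.9) in Normal and 243 CPM (231 to 256) in SAH.

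**Figure D4:**
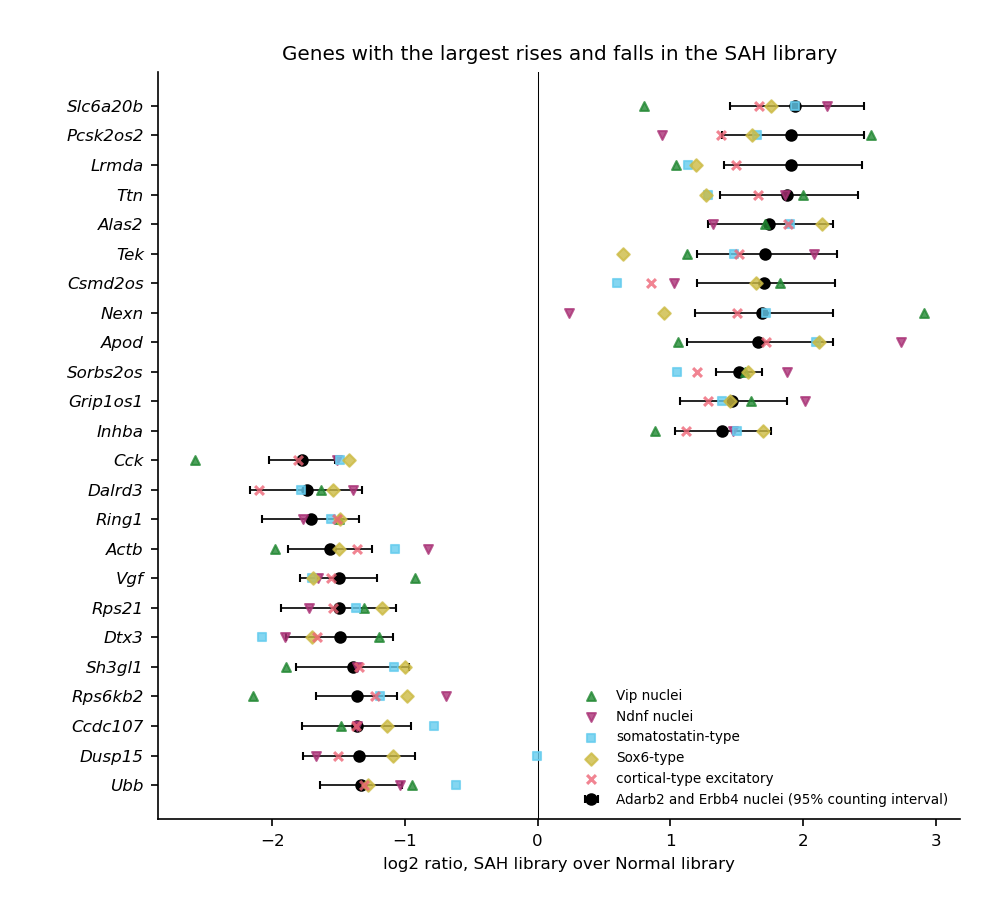
Log2 ratio of SAH over Normal (horizontal axis) for the 12 largest rises and the 12 largest falls in Adarb2 and Erbb4 nuclei (black, with 95% counting intervals), beside Vip nuclei, Ndnf nuclei and the 3 comparison classes (coloured symbols, without intervals). Cck reaches -2.58 in Vip nuclei, and the 12 rises lie to the right of 0 in every group drawn.

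Part of the genes past 2-fold also passed it in the comparison classes, which come from the same 2 libraries. Of 375 genes that passed 2-fold in the selection and had at least 20 UMIs in each comparison class, 96 passed 2-fold in the same direction in all 3 comparison classes and 86 in none. Those passing in none included Rbm3, the phosphatase Dusp11 (100.0 and 49.7 CPM) and the mitochondrial gene mt-Nd2 (49.4 and 20.6 CPM), whose log2 ratios in the comparison classes were between -0.87 and -0.49. Signs of RNA quality also differed, with mitochondrial transcripts at 0.0836% of UMIs in Normal and 0.0608% in SAH in the selected nuclei. Their part in the results was not tested.

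Receptor, channel and adhesion lists stayed near the centre. Among 21 glutamate receptor genes 0 passed 2-fold, with Grik2 at 3385 and 4247 CPM and a median log2 ratio of 0.09, which was -0.04 when centred by length. Among 25 potassium and HCN channel genes 0 passed, with a median of 0.09, and among 21 sodium and calcium channel genes 0, with a median of -0.08. Of 12 GABA-A receptor subunits 1 fell, Gabrd, and 0 under either centring, while Gabrb2 was at 709 and 897 CPM, and the median was 0.14. None of 28 synapse adhesion and neuregulin genes passed, with a median of 0.11, which was -0.04 when centred by length. Among 6 genes of GABA synthesis, release and uptake, where Gad1 and Gad2 are left out because the selection used them, 0 passed, with a median of -0.33. Glucocorticoid targets (11 genes, median 0.03), clock genes (13 genes, 0.05) and neuromodulator receptors (21 genes, 0.02) held 0 genes past 2-fold. So did long noncoding RNAs (11 genes, -0.17), innate cytokine genes (4 genes, -0.07) and integrated stress genes (9 genes, -0.39). The 4 genes compared on the innate cytokine list were Nfkb1, Stat3, Il6st and Rela. Of the 20 on that list, Il1b, Il6, Tnf and Ccl2 were among those with too few UMIs to compare. Of 25 integrated stress genes listed, Atf3, Atf4, Ddit3 and Trib3 were among those with too few UMIs. Whether the genes left out differed between the libraries was not tested.

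Summed markers of glial and vascular cells were lower than those of the neuronal lists named below. They were not low beside other neurons, since microglial, oligodendrocyte and astrocyte sums lay within the range of the comparison classes. Summed microglial markers were at 100 CPM in Normal and 120 CPM in SAH, led by P2ry12, with 0 of 10 genes at 0 UMIs. Oligodendrocyte markers summed to 184 and 171 CPM, with 0 of 11 genes at 0 UMIs in either library. Markers of oligodendrocyte precursors, led by Vcan, summed to 82.9 and 63.1 CPM. In somatostatin-type nuclei, the highest comparison class, these were at 29.7 and 20.1 CPM. Astrocyte markers summed to 202 and 221 CPM, where Slc1a2 and Slc4a4 held most of the signal while Aqp4 had 3 UMIs in each library and 1 of 8 genes was at 0 in SAH. Vascular markers summed to 7.16 and 4.08 CPM, with 4 of 10 genes at 0 in Normal and 3 in SAH. The highest comparison class, excitatory nuclei, stood at 5.95 and 4.54 CPM. Among neuronal lists, the 14 striatal and olfactory-type markers summed to 1784 and 1682 CPM, led by Pde10a, and the 12 excitatory markers to 463 and 493 CPM, led by Camk2a. The 15 medial-type markers summed to 2545 and 2311 CPM, led by Nxph1 at 1289 and 1304 CPM, while Sox6 was at 128 and 75.5 CPM and the defining factor Lhx6 at 12.5 and 4.42 CPM. Whether transcripts of other cells had a part in the results was not tested.

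Gene length ran alongside the ratio of SAH over Normal. When the 8692 genes with a known length were split into 5 bins of near equal size, the median log2 ratio was -0.45 in the bin of the shortest genes, up to 16309 bases, then -0.27, -0.17, -0.09 and 0.07 in the bin of the longest, from 114680 bases. The first bin held 172 of the genes that were 2-fold lower, and the last 4. The same order of medians was found in Vip nuclei, Ndnf nuclei and each of the 3 comparison classes, which come from the same libraries. Read against the 500 genes nearest in length, the log2 ratio of Cck was -1.25, Vgf -0.98, Npas1 -0.98, Npy -0.76 and Cxcl14 -0.59, whereas Vip was 0.62 and Inhba 1.66. What produced the relation with length was not tested.

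**Figure D5:**
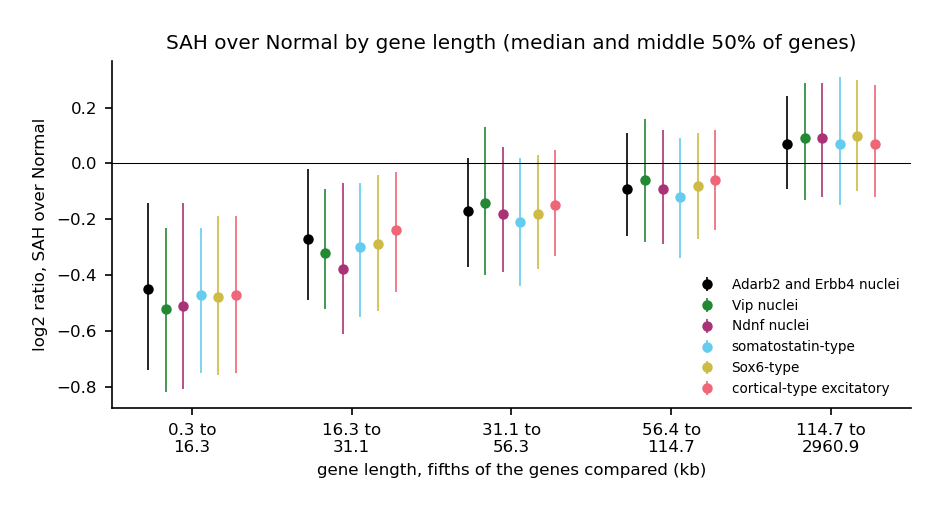
Median log2 ratio of SAH over Normal (vertical axis; bars span the middle 50% of genes) by bin of gene length in kilobases (horizontal axis, 5 bins of near equal size) for Adarb2 and Erbb4 nuclei, Vip nuclei, Ndnf nuclei and the 3 comparison classes. In Adarb2 and Erbb4 nuclei the median runs from -0.45 for the shortest genes to 0.07 for the longest, and the other groups follow the same order.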

How the data were processed

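Single-nucleus libraries of 2 conditions were analysed. The deposited matrices hold raw UMI counts per gene and nucleus for 32285 genes. The authors aligned reads to the mm10 reference with introns included. The labels name Cell Ranger 5.0.0 and the matrix header 6.1.2, and the labels and methods also describe different sequencing technologies. The study's text gives more nuclei for the control than for SAH, whereas the files hold more for SAH. Nuclei were selected with the limits stated in the results, with no correction for free RNA. UMI counts were summed over nuclei per library, and genes with at least 100 UMIs were compared by size alone, at 2-fold. Genes at 0 were set to 3 counts for ratios. Members and gene lists were chosen with earlier results of these data known. Clustering used 2000 variable genes, 20 principal components, 15 neighbours and Leiden resolution 1.0 (scanpy 1.11.5, leidenalg 0.10.2). A cluster took a name from at least 3 list markers with 3-fold higher CPM than the other members and at least 20 UMIs, unless another list led among its top genes, and excitatory markers gave no name. Doublets were kept; as an alternative, the nuclei with the highest Scrublet scores in each library (1192 of 12204 Normal and 2653 of 18209 SAH nuclei, a number set by library size) were removed, among them 38 Normal and 81 SAH members. Named genes were the markers, the 12 largest rises and falls with at least 200 UMIs outside predicted and mitochondrial genes, list genes past 2-fold or with the most UMIs, and the 12 genes highest against comparison classes. Genes named for passing 2-fold in no comparison class were chosen after their values were seen. Somatostatin-type nuclei had at least 10 Sst UMIs, Sox6-type nuclei at least 5 Sox6 and 5 Erbb4 UMIs with at most 3 Sst, both with at most 3 Adarb2, and excitatory nuclei at least 3 Slc17a7 UMIs and at most 1 of Gad1 and Gad2. Gene lengths came from GENCODE vM21. The ratio step was tested on simulated data. Python 3.11.15, numpy 2.4.6, pandas 2.3.3 and scipy 1.17.1 were used.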

Additional observations from a re-analysis of the deposited data

How the results depend on the processing

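No paired analysis was possible because each condition was 1 library. The log2 ratio of the share of selected nuclei, 0.00, was 0.25 among nuclei with Gad1 and Gad2. Genes 2-fold higher and lower in SAH, 180 and 231, became 88 and 85 with members thinned to 5000 UMIs. With a minimum of 50 UMIs they were 360 and 458, and with 200 UMIs 89 and 82. In the clusters named Vip-like, Lamp5-like or Sncg-like alone they were 113 and 121, an alternative chosen after seeing the data. Centred on the median of all genes, 251 were higher and 126 lower, and centred by gene length 274 and 33. Genes higher in Vip nuclei, 142, became 214 with a minimum of 50 UMIs. Genes higher in Ndnf nuclei, 146, became 85 when thinned and 95 with 200 UMIs. Fewer UMIs or nuclei, or another minimum, change how many genes can be compared. Removing the highest doublet scores left 147 and 165 genes for SAH and a log2 ratio of the Vip share of 0.62, which lay between 0.40 and 0.62 over its 8 alternatives. At clustering resolution 0.5, also chosen after seeing the data, the clusters with caudal-type markers held 62.2% of nuclei in place of 57.3%. The log2 ratio of the share of selected nuclei lay between -0.03 and 0.25, that of the Vip share kept its sign, and medians of several gene lists changed sign under the centrings. The 3 pooled mice of a library cannot be separated, so spread between animals is unknown.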
